A study of Mus musculus with 10 samples.

Results

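The genes described here carry the clearance of heme and iron that blood leaves behind. They are Hmox1, Hmox2, Blvra and Blvrb for heme breakdown, Hpx and Cd163 for scavenging, and Fth1, Tfrc, Slc40a1 and Cp for iron storage and transport. They were chosen for these known roles, and a gene was a member when its name in the count tables equalled 1 of these 10 names, out of 24391 gene names in all. Each of the 10 names was found. The study asked which transcripts of the mouse hippocampus differ 4 days after subarachnoid hemorrhage (SAH), bleeding into the fluid space around the brain. All mice were male, 10 to 14 weeks old, of the strain that the study's methods write as C56BL/6J, and the labels give no drug treatment. In SAH mice (n = 4) a filament inside the carotid artery punctured the circle of Willis, the arterial ring under the brain, and only animals with a large drop in cerebral blood flow were kept. Sham mice (n = 3) had the same isoflurane anesthesia, neck surgery and filament, but no vessel was pierced. Naive mice (n = 3) had no operation. RNA came from the whole hippocampi of both sides of each mouse, and "control" below means Sham and Naive mice together (n = 6). Mice are numbered 1 to 4 for SAH, 5 to 7 for Sham and 8 to 10 for Naive.

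When red blood cells break down outside vessels, they release hemoglobin and then heme, an iron-holding ring that damages membranes and proteins. CD163 on macrophages takes up hemoglobin bound to haptoglobin, and hemopexin binds free heme. Heme oxygenase opens the ring into biliverdin, carbon monoxide and iron, and biliverdin reductase turns biliverdin into bilirubin. The freed iron is stored in ferritin or leaves the cell through ferroportin, helped by the ferroxidase ceruloplasmin, while the transferrin receptor brings iron in.

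Part of this system is controlled in the RNA itself, through the iron-responsive element, a hairpin bound by iron regulatory proteins when iron is low. In a 5′ UTR the bound hairpin blocks translation, and in a 3′ UTR it keeps the transcript from decay. The genome mm9 (NCBIM37) was searched along the exons of each gene name for a 17-base pattern, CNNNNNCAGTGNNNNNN, in which the 5 bases on either side of the 6-base loop CAGTGN had to pair, G with T allowed. Among the members it was found in Fth1, Tfrc and Slc40a1, against 262 of 24181 exon models (1.08%) of all gene names at a single locus. Tfrc holds 4 copies, the most of any model, and only 2 models hold more than 1. The elements are printed 5′ to 3′ on the gene's strand with 6 bases before and after, because they show which members carry a match to this element. The capitals mark the loop.
Fth1, 5′ UTR, chr19:10057222-10057250, plus strand: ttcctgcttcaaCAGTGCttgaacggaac
Slc40a1, 5′ UTR, chr1:45982310-45982338, minus strand: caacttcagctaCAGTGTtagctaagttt
Tfrc, 3′ UTR, chr16:32631305-32631333, plus strand: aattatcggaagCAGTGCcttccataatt
Tfrc, 3′ UTR, chr16:32631684-32631712, plus strand: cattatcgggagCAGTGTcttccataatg
Tfrc, 3′ UTR, chr16:32631749-32631777, plus strand: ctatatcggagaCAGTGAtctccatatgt
Tfrc, 3′ UTR, chr16:32631796-32631824, plus strand: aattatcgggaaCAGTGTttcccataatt
Ftl1, the ferritin light chain and not a member, carries a near copy of the Fth1 element at chr7:52715149-52715177 on the minus strand of its 5′ UTR: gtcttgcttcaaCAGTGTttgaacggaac. A match to these letters is a description of the sequence, and protein binding was not measured. For transcripts with the element in the 5′ UTR, RNA counts do not report how much protein was made.

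Each library held between 19743388 and 27254655 counts, and each pair of libraries of a group differed by more than sampling noise. Markers of hippocampal neurons were present in every mouse, with 0 of 6 at 0 and a summed level of 530 to 653 in CPM, the counts per library after scaling each total to the same size with TMM factors. Choroid plexus markers varied widely, from 54.6 to 1245 summed CPM, and stood apart in SAH mice 3 and 4 and Sham mouse 7, so results are also given without these 3 mice. The globin genes Hba-a1, Hba-a2, Hbb-b1, Hbb-b2, Hbb-bs and Hbb-bt were listed at 0 in all 10 mice. Between 98.6% and 100% of their exon bases belong to a second globin name on the same strand, and read pairs that overlapped more than 1 gene name had been left out, so the amount of hemoglobin RNA cannot be read from these counts. Slc4a1, the anion exchanger of the red blood cell membrane, could be counted and had 1 to 3 counts per mouse.

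Of the 10 genes, 3 rose after SAH, namely Cd163, Cp and Hmox1, and 0 fell, with the Hmox1 call lost under 1 alternative given below. Cd163 was 2.84-fold, Cp 1.81-fold and Hmox1 1.72-fold the control level. Of the remaining genes, 6 did not pass the test and Hpx was too low to test. Among all 14993 genes in the test the share called higher was 3.13% and the share called lower 1.54% (adjusted p under 0.10, edgeR's quasi-likelihood test with Benjamini-Hochberg adjustment). At an unadjusted p under 0.05 the members higher and lower were also 3 and 0, where 17% of all tested genes had such a p, and DESeq2 also called 3 higher and 0 lower. The median log2 fold change of the 9 tested members was 0.14, beside −0.0024 over all tested genes. Of the 9 values 8 were positive, where 7361 of all 14993 were. Blvrb and Slc40a1 are among these 8 and changed sign in a fit with a mouse left out. In CPM, 3 members had every SAH mouse above every control mouse, an arrangement seen in 2.83% of all tested genes.

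**Figure D1:**
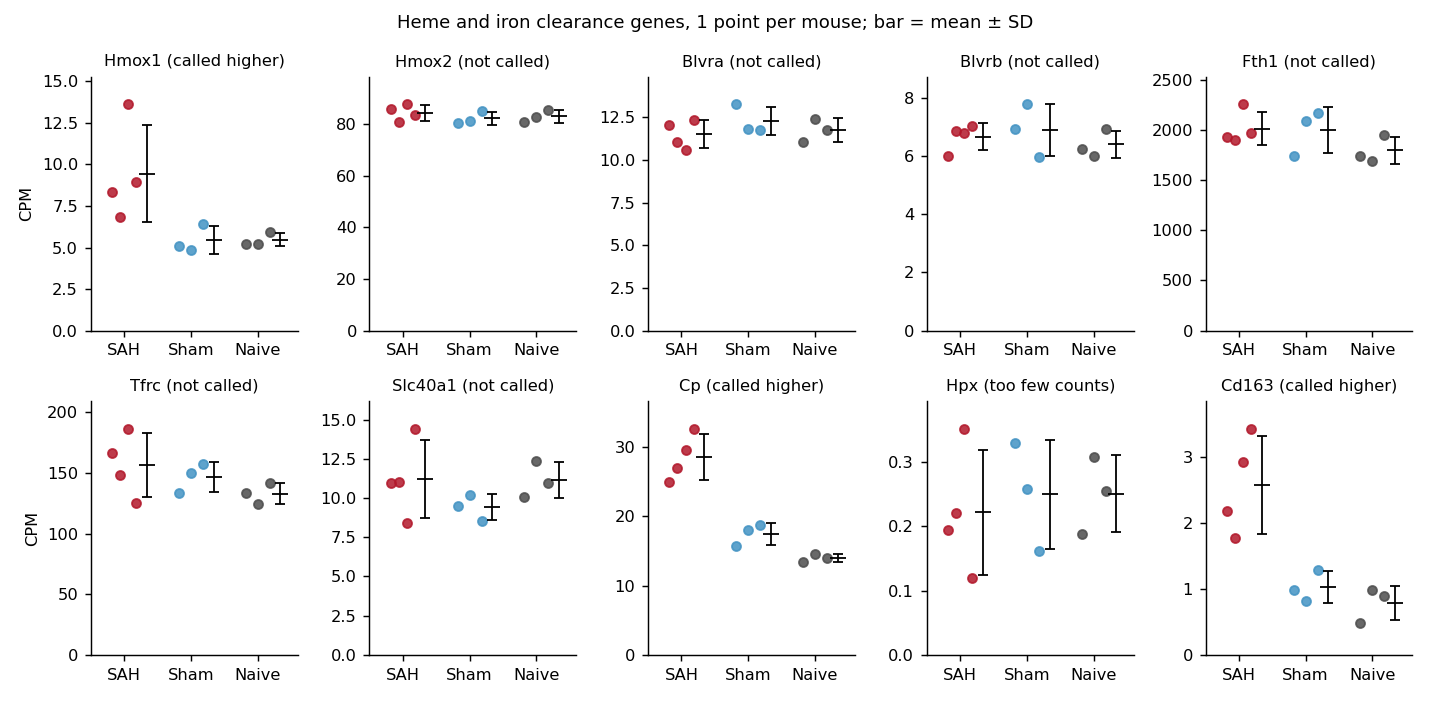
Expression of the 10 genes in each mouse, in CPM (vertical axis from 0) by group, with 1 point per mouse and a bar for the mean ± SD (SAH n = 4, Sham n = 3, Naive n = 3). The SAH points lie above all Sham and Naive points for Hmox1, Cp and Cd163, with the highest Hmox1 value, 13.6 CPM, in SAH mouse 3, while the groups overlap for the other 7 genes.

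Cd163, the hemoglobin-haptoglobin receptor of macrophages (chr6:124254669-124280545, plus strand, 17 exons), had the largest fold change of the members but few counts, 13 to 86 per mouse. SAH mice 1 to 4 had 2.18, 1.77, 2.92 and 3.43 CPM. Sham mice had 0.988, 0.810 and 1.29 CPM and Naive mice 0.489, 0.976 and 0.892 CPM. Every SAH mouse was above every control mouse, with SAH mouse 4 the highest and Naive mouse 8 the lowest. The log2 fold change against control was 1.51 (SE 0.244, 95% CI 0.98 to 2.03, adjusted p = 0.00561 by edgeR). With each mouse left out in turn it ran from 1.33 without SAH mouse 4 to 1.66 without SAH mouse 2, and passed the test in all 10 of these fits. In whole tissue, more cells of a type and more RNA per cell cannot be told apart, for this gene and for those that follow.

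Hpx, the plasma protein that binds free heme (chr7:112740125-112748630, minus strand, 10 exons), was close to the limit of detection. Its counts were 4, 6, 7 and 3 in the SAH mice, 8, 7 and 4 in the Sham mice and 5, 6 and 6 in the Naive mice. The 3 groups overlapped throughout, and no mouse reached the 0.409 CPM that the filter on low counts asked for. Tested without that filter, its log2 fold change of −0.19 had a 95% CI from −1.0 to 0.63 (edgeR adjusted p = 0.843), so a change of nearly 2-fold downward was within the error. Most hemopexin is made in the liver, and plasma protein does not appear in RNA counts.

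Hmox1, the inducible heme oxygenase (chr8:77617517-77624492, plus strand, 5 exons), rose, while Hmox2, the constitutive enzyme of neurons and other cells (chr16:4726361-4766249, plus strand, 7 exons), did not pass the test. Hmox1 measured 8.37, 6.86, 13.6 and 8.96 CPM in SAH mice 1 to 4. Sham mice had 5.11, 4.82 and 6.41 CPM and Naive mice 5.23, 5.24 and 5.95 CPM. All 4 SAH values were above all 6 control values, but SAH mouse 2 was only just above Sham mouse 7, and SAH mouse 3 was far above the other SAH mice. The log2 fold change against control was 0.79 (SE 0.161, 95% CI 0.44 to 1.13, edgeR adjusted p = 0.0191). It fell to 0.56 without SAH mouse 3 and was 0.92 without SAH mouse 2, and it passed the test in all 10 fits with a mouse left out (largest adjusted p = 0.0552). The call was lost with the choroid plexus level as a covariate (0.57, edgeR adjusted p = 0.200), as described with the cell type markers.

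Hmox2 showed little spread, from 80.5 to 87.7 CPM over all 10 mice, with SAH and control mice intermixed. Its log2 fold change of 0.032 (SE 0.0387, 95% CI −0.051 to 0.12) had the narrowest interval of the members (edgeR adjusted p = 0.705). Per kilobase of exon, Hmox2 was by far the more abundant of the pair. Hmox1 made up 8.77% ± 2.18 (SD, n = 4) of their summed CPM per kilobase in SAH mice, with a range of 6.87% to 11.9%, and 5.41% ± 0.431 (SD, n = 6) in control mice, with a range of 4.91% to 6.13%. These shares did not overlap between SAH and control mice, although Hmox2 still held most of the heme oxygenase RNA in each mouse.

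The biliverdin reductases, the step after heme oxygenase, did not pass the test. Blvra (chr2:126896393-126922820, plus strand, 8 exons), the adult form, measured 10.6 to 12.3 CPM in SAH mice and 11.03 to 13.3 CPM in control mice. Blvrb (chr7:28232997-28251000, plus strand, 6 exons), which also acts as a flavin reductase, measured 6.00 to 7.01 CPM in SAH mice and 5.97 to 7.77 CPM in control mice. Both genes had overlapping groups. Their log2 fold changes were −0.057 for Blvra (95% CI −0.22 to 0.10, edgeR adjusted p = 0.726) and 0.0074 for Blvrb (95% CI −0.20 to 0.22, edgeR adjusted p = 0.980). Blvrb contributed 40.4% ± 2.68 (SD, n = 4) of the pair's CPM per kilobase in SAH mice and 39.3% ± 2.69 (SD, n = 6) in control mice, again with overlap.

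Cp, the copper-bound ferroxidase ceruloplasmin that oxidizes iron as it leaves the cell (chr3:19857054-19909750, plus strand, 22 exons), gave the smallest adjusted p of the members. It measured 24.96, 27.03, 29.6 and 32.7 CPM in SAH mice 1 to 4. Sham mice had 15.7, 18.1 and 18.7 CPM and Naive mice 13.4, 14.6 and 14.1 CPM. The groups formed 3 steps without overlap, Naive lowest, Sham between and SAH highest, and summed markers of border-associated macrophages and of meningeal fibroblasts stood in the same 3 steps. Of all tested genes, 2.83% had every SAH mouse above every control mouse and 4.86% had every Sham mouse above every Naive mouse. Against control the log2 fold change was 0.86 (SE 0.101, 95% CI 0.64 to 1.08, edgeR adjusted p = 0.000959). It ran from 0.78 without SAH mouse 4 to 0.92 without SAH mouse 1, and passed the test in all 10 fits. An antisense gene, Hps3, overlaps 108 of the 6265 exon bases of Cp, and Cdip1 overlaps 399 of the 1366 of Hmox2, but the counting used strand.

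Slc40a1, the iron exporter ferroportin that works with ceruloplasmin (chr1:45964915-45982439, minus strand, 8 exons), did not pass the test. SAH mice 1 to 4 had 10.98, 11.03, 8.39 and 14.4 CPM. Sham mice had 9.51, 10.2 and 8.54 CPM and Naive mice 10.1, 12.4 and 10.96 CPM. The SAH group held both the lowest and the highest value, in SAH mice 3 and 4. The log2 fold change of 0.14 (95% CI −0.15 to 0.42, edgeR adjusted p = 0.631) changed sign without SAH mouse 4, to −0.012.

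Fth1, the ferritin heavy chain that stores iron (chr19:10055090-10059601, plus strand, 5 exons), and Tfrc, the transferrin receptor that imports it (chr16:32608982-32632880, plus strand, 19 exons), did not pass the test either. Fth1 measured 1926, 1895, 2253 and 1968 CPM in SAH mice, 1739.9, 2086 and 2171 CPM in Sham mice, and 1742, 1693 and 1949.6 CPM in Naive mice. Tfrc measured 166, 148, 186 and 125 CPM in SAH mice, 133, 149.8 and 157 CPM in Sham mice, and 133, 124 and 142 CPM in Naive mice. For both genes SAH mouse 3 was the highest of all mice and the groups overlapped. The log2 fold changes were 0.087 for Fth1 (95% CI −0.070 to 0.24, edgeR adjusted p = 0.574) and 0.16 for Tfrc (95% CI −0.036 to 0.36, edgeR adjusted p = 0.399). In Fth1, 95.1% of 50-base windows within exons occur at a single place in the genome, so a part of its reads could have been left out as multiply aligned. For the other members this share was 99.46% to 100%.

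Levels of different genes were compared as CPM per kilobase of exon. In control mice Fth1 stood at 1255 ± 134, followed by Hmox2 at 60.5 ± 1.67, Tfrc at 28.4 ± 2.46, Blvra at 10.3 ± 0.645 and Blvrb at 6.65 ± 0.700 (SD, n = 6), and none of these neighbours overlapped. Hmox1 at 3.46 ± 0.377, Slc40a1 at 3.04 ± 0.386 and Cp at 2.52 ± 0.351 came next, and each overlapped its neighbour. Cd163 at 0.202 ± 0.0582 and Hpx at 0.169 ± 0.0443 were lowest and overlapped each other. In SAH mice the upper part of the order stayed as it was. Hmox1 reached 6.00 ± 1.85 and its range met that of Blvrb, at 6.68 ± 0.455, while Cp at 4.56 ± 0.531 came to stand above Slc40a1 at 3.32 ± 0.731, with overlap (SD, n = 4). Cd163 at 0.573 ± 0.165 no longer overlapped Hpx at 0.150 ± 0.0655.

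In the pairwise comparisons, estimated in 1 model with all 3 groups, mice are shared, since SAH mice serve in both SAH comparisons and Sham and Naive mice each in 2. In SAH against Sham, edgeR called 2 of the 9 tested members higher and 0 lower (DESeq2 3 and 0), where 0.529% of 15134 tested genes were called higher and 0.192% lower. Cp had a log2 fold change of 0.71 (SE 0.0968, edgeR adjusted p = 0.0127) and Cd163 of 1.32 (SE 0.292, edgeR adjusted p = 0.0911). Hmox1 had about the same fold change as against control, 0.79 (SE 0.203, 95% CI 0.35 to 1.23), but its edgeR adjusted p was 0.147. The Cd163 call was lost in 7 of the 10 fits with a mouse left out and the Cp call without Sham mouse 6 (edgeR adjusted p = 0.101), while Hmox1 passed without SAH mouse 2 or SAH mouse 3.

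In SAH against Naive, edgeR and DESeq2 each called 3 of 9 members higher and 0 lower, where 2.03% of tested genes were called higher and 0.965% lower. The log2 fold change was 1.73 for Cd163 (SE 0.310, edgeR adjusted p = 0.0160), 1.03 for Cp (SE 0.0996, edgeR adjusted p = 0.000377) and 0.78 for Hmox1 (SE 0.205, edgeR adjusted p = 0.0852). The Hmox1 call was lost in 6 of the 10 fits with a mouse left out and with the mice of these groups alone (edgeR adjusted p = 0.148), and the Cd163 call without Naive mouse 8 (1.46, edgeR adjusted p = 0.115). That all SAH mice lay above all mice of the other group was common in these small groups, at 4.92% of tested genes against Sham and 7.04% against Naive.

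In Sham against Naive, the comparison of surgery without bleeding, edgeR called 0 of the 9 members in either direction, and DESeq2 called 0 as well. At an unadjusted p under 0.05 only Cp was higher, and over all tested genes 2.02% had such a p while 0.00661% were called higher and 0 genes lower. The log2 fold change of Cp was 0.32 (SE 0.106, 95% CI 0.092 to 0.55, unadjusted p = 0.00995, edgeR adjusted p = 1.00). All Sham mice were above all Naive mice for Cp, an arrangement that 4.86% of tested genes showed. The summed markers of border-associated macrophages (9.68 to 11.3 against 6.29 to 7.34 CPM) and of meningeal fibroblasts (151 to 157 against 122 to 132 CPM) also lay higher in each Sham mouse than in each Naive mouse, and their part in the Cp values was not tested. All 7 border-associated macrophage markers had a positive log2 fold change for Sham against Naive, with a median of 0.54, of which edgeR called 0 and DESeq2 called 1, and 2 had an unadjusted p under 0.05 in each tool. All 9 choroid plexus markers were positive too, with a median of 1.56 and 0 called, and 4 had an unadjusted p under 0.05 in each tool. Their sums overlapped, at 65.1 to 851 CPM in Sham and 54.6 to 75.8 CPM in Naive mice, and their part in the Cp values was not tested either. Hmox1 was nearly level, at −0.0094 (95% CI −0.49 to 0.47), and Cd163 had 0.41 (95% CI −0.36 to 1.18) with overlapping groups.

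Of 62 further heme and iron genes, written from general knowledge in 5 lists and counted whether or not they moved, 60 were in the tables and 50 were tested. After SAH edgeR called 5 of these 50 higher than control and 1 lower (DESeq2 8 and 1), where 3.13% of all tested genes were higher and 1.54% lower, and the median log2 fold change was 0.063. In SAH against Sham edgeR called 0 of 50 and DESeq2 called 2 higher, where edgeR called 0.529% of all tested genes higher and 0.192% lower. With so few calls over all genes, 0 of 50 says little. An unadjusted p under 0.05 was reached there by 6 higher genes and 1 lower gene in edgeR, and the share of all genes was not computed. In SAH against Naive 3 were higher in edgeR, namely Lcn2, Bmp6 and Ftl1, and 5 in DESeq2. There edgeR called 2.03% of all tested genes higher and 0.965% lower. In Sham against Naive 0 of 50 were called by edgeR or DESeq2. There 1 was higher at an unadjusted p under 0.05 in edgeR, where 2.02% of all tested genes had such a p.

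Among 7 tested genes of heme scavenging and transport, Abcg2, a heme and porphyrin exporter of vessels, was higher and Slc48a1, which moves heme out of lysosomes, was lower. Abcg2 measured 15.7 to 18.1 CPM in SAH mice and 13.4 to 15.5 CPM in control mice, without overlap, at a log2 fold change of 0.23 (SE 0.0643, edgeR adjusted p = 0.0792). Every SAH mouse was above every control mouse in 2.83% of tested genes, and the share with every SAH mouse below was not computed. Slc48a1 measured 136 to 142 CPM in SAH mice and 146 to 156 CPM in control mice, also without overlap, at −0.12 (SE 0.0335, edgeR adjusted p = 0.0862). Both are small differences, and with a mouse left out the call held in only 3 of 10 fits for Abcg2 and 2 of 10 for Slc48a1. Hp, the haptoglobin that Cd163 recognizes in complex with hemoglobin, had 1 to 8 counts per mouse and was not tested.

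Of 9 heme synthesis genes 0 passed the test in edgeR or DESeq2, and only Cpox (−0.093), a later enzyme of the pathway, had an unadjusted p under 0.05. Alas1, the rate-limiting enzyme of that pathway outside red blood cells, had a log2 fold change of 0.072 (95% CI −0.055 to 0.20, edgeR adjusted p = 0.567). Of 6 tested heme-responsive transcription factors 0 passed in edgeR, where only Maff, a small Maf partner of these factors, had an unadjusted p under 0.05 (1.56, edgeR adjusted p = 0.195), and 1 was called by DESeq2. Maff measured 0.387, 0.922, 4.83 and 0.837 CPM in SAH mice 1 to 4 and 0.212 to 0.873 CPM in control mice, so SAH mouse 3 alone was far above the others and the groups overlapped. Bach1, the heme-sensing repressor of Hmox1, had 0.063 (95% CI −0.057 to 0.18, edgeR adjusted p = 0.594) and Nfe2l2, the activator NRF2, had 0.066 (95% CI −0.18 to 0.31, edgeR adjusted p = 0.795).

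Among 20 tested genes of iron storage and transport 3 were higher and 0 lower. Lcn2, a secreted lipocalin that binds iron through siderophores, had 21, 17, 91 and 21 counts in the SAH mice and 0 to 9 counts in the control mice, at a log2 fold change of 3.74 (SE 0.735, edgeR adjusted p = 0.0150) that fell to 2.68 without SAH mouse 3. It passed the filter on low counts through the SAH mice alone, since no control mouse exceeded 0.363 CPM, so its call had to be in this direction and its fold change is imprecise. Slc39a8, a zinc, manganese and iron importer, had 3.72 to 5.13 CPM in SAH mice and 2.30 to 3.44 CPM in control mice, at 0.57 (SE 0.145, edgeR adjusted p = 0.0564). Ftl1, the ferritin light chain, had 141 to 159 CPM in SAH mice and 131 to 141 CPM in control mice, at 0.16 (SE 0.0403, edgeR adjusted p = 0.0528). The Ftl1 value is uncertain, since only 30.1% of its 50-base exon windows occur at a single place in the genome. The calls of Slc39a8 and Ftl1 each held in 5 of 10 fits with a mouse left out. Trf, the iron carrier transferrin, which oligodendrocytes make in the brain, had −0.095 (95% CI −0.20 to 0.0058, edgeR adjusted p = 0.327) and was not called. Mature oligodendrocyte markers were called lower in 6 of 6, where 1.54% of all tested genes were. Their part in the Trf value was not tested.

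Of 8 tested iron regulation genes 1 was higher, Bmp6, the growth factor that induces hepcidin in the liver. It measured 8.51, 8.08, 7.24 and 8.72 CPM in SAH mice and 3.19 to 6.13 CPM in control mice, without overlap, as in 2.83% of tested genes. The log2 fold change was 0.90 (SE 0.169, 95% CI 0.54 to 1.26, edgeR adjusted p = 0.0116) and the call held in all 10 fits with a mouse left out. Hamp, the gene of hepcidin itself, had 0 to 1 counts per mouse.

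Leaving Lcn2 aside, Bmp6 kept its call both with the choroid plexus level as a covariate and without SAH mice 3 and 4 and Sham mouse 7, and the other 4 called genes lost theirs under both. Calls also became fewer over all tested genes, from 470 higher and 231 lower to 138 and 49 with the covariate. They were 257 and 73 without these 3 mice, where 2 SAH mice were left. Why single calls were lost was not tested. Without these 3 mice the log2 fold change was 0.28 for Slc39a8, 0.11 for Ftl1, 0.20 for Abcg2 and −0.11 for Slc48a1 (edgeR adjusted p from 0.288 to 0.560). With the covariate it was 0.56, 0.12, 0.16 and −0.14 (edgeR adjusted p from 0.140 to 0.579). With all 10 mice and no covariate the values were 0.57, 0.16, 0.23 and −0.12 in the same order. Over all 20 alternatives the adjusted p ran from 0.0168 to 0.560 for Slc39a8, 0.00779 to 0.432 for Ftl1, 0.0416 to 0.579 for Abcg2 and 0.0203 to 0.288 for Slc48a1 (edgeR, and DESeq2 in 1 alternative).

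**Figure D2:**
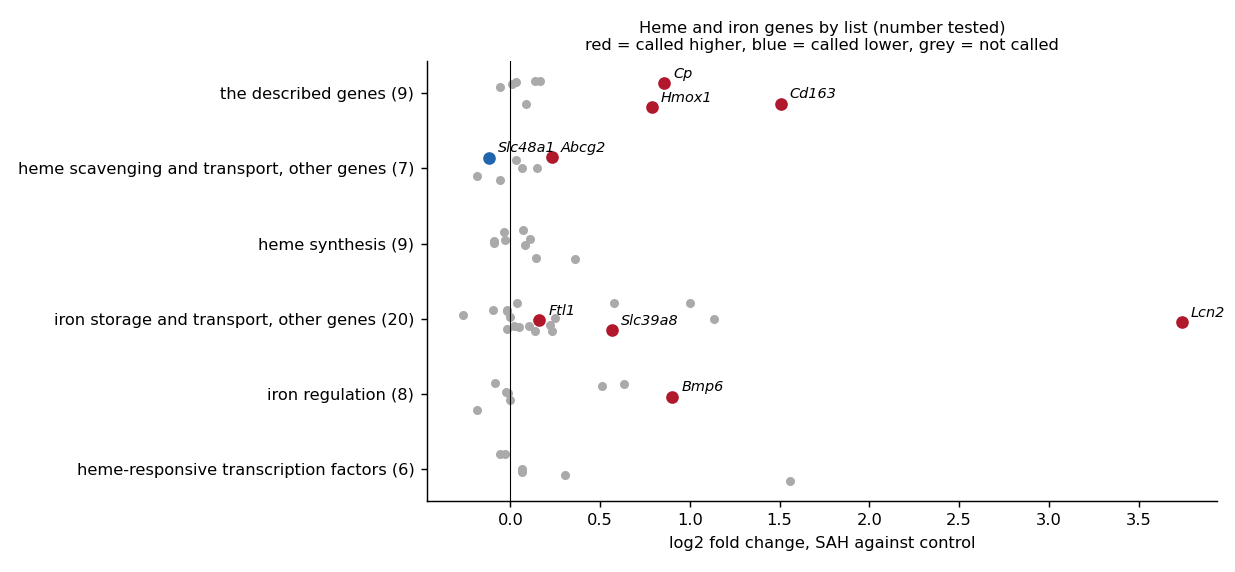
Log2 fold change of SAH against control (horizontal axis) for each tested gene, by list, with the number tested in parentheses and the vertical scatter within a list carrying no value. Red points are called higher and blue lower at an adjusted p under 0.10 (edgeR), and they are 3 of the 9 described genes and 6 of the 50 others, with Lcn2 at 3.74 and most grey points near 0.

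The marker lists of cell types differed in how many genes edgeR called against control, where 3.13% of all tested genes were higher and 1.54% lower. The list of border-associated macrophages, the macrophages of the meninges, vessels and choroid plexus that carry CD163, had 5 of 7 markers higher and 0 lower. Among these 5, Ms4a7 and Folr2 reached the filter on low counts mainly through the SAH mice, with 1 control mouse each above it, and could therefore hardly be called lower. The summed level of the list was 17.9 to 22.6 CPM in SAH mice, 9.68 to 11.3 CPM in Sham mice and 6.29 to 7.34 CPM in Naive mice, with 0 of 7 markers at 0. Their part in the Cd163, Cp and Hmox1 values was not tested. Within these samples Cd163 stood at 0.339 ± 0.128 (SD, n = 4) of the macrophage marker Mrc1 per kilobase in SAH mice and 0.255 ± 0.0842 (SD, n = 6) in control mice, with overlapping ranges of 0.231 to 0.489 and 0.171 to 0.360.

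Meningeal fibroblast markers had 4 of 5 higher, at 161 to 296 summed CPM in SAH mice, 151 to 157 CPM in Sham mice and 122 to 132 CPM in Naive mice. Microglia markers had 1 of 6 higher, at 259 to 325 and 260 to 294 summed CPM. Astrocyte markers, from a cell type that makes ceruloplasmin in the brain, had 1 of 6 higher, Gfap, at 5227 to 6281 and 5162 to 5647 summed CPM. Of monocyte markers 1 of 5 was tested and was higher, S100a4, and the list summed to 3.06 to 4.42 CPM in SAH mice and 1.56 to 2.14 CPM in control mice. Most of this sum was S100a4, at 1.92 to 3.87 CPM in SAH mice and 1.27 to 1.81 CPM in control mice, so the sum mainly follows that gene. Endothelial markers had 2 of 5 higher, at 103 to 207 and 94.1 to 132 summed CPM, hippocampal neuron markers 1 of 6, C1ql2, and general neuron markers had 0 of 4 called by edgeR or DESeq2 and 0 of 4 with an unadjusted p under 0.05. Neutrophil markers were near 0 in all groups, at 0.0753 to 1.21 summed CPM, and none was tested. How far these cells account for the rises was not tested.

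Choroid plexus markers had 0 of 9 called against control by edgeR or DESeq2 (2 higher at an unadjusted p under 0.05 in edgeR). Against Naive 2 of 9 were higher in edgeR and 3 in DESeq2, and all 9 were higher at an unadjusted p under 0.05 in edgeR. The summed level of these markers was 112, 226, 1245 and 881 CPM in SAH mice, 222, 65.1 and 851 CPM in Sham mice and 54.6 to 75.8 CPM in Naive mice. SAH mouse 3, highest in these markers, was also highest in Hmox1. With the choroid plexus level as a covariate, an alternative added after the data were seen, the log2 fold change of Hmox1 fell to 0.57 and its call was lost (edgeR adjusted p = 0.200, beside 0.000362 to 0.0552 under the other 19 alternatives). Cp at 0.71 (adjusted p = 0.00841) and Cd163 at 1.17 (adjusted p = 0.0355) kept theirs in the same edgeR fit. Leaving out SAH mice 3 and 4 and Sham mouse 7 left only 2 SAH and 5 control mice. In these 7 mice edgeR called all 3 members, with Hmox1 at 0.52 (adjusted p = 0.0473), Cp at 0.78 and Cd163 at 1.25 (adjusted p = 0.0228).

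**Figure D3:**
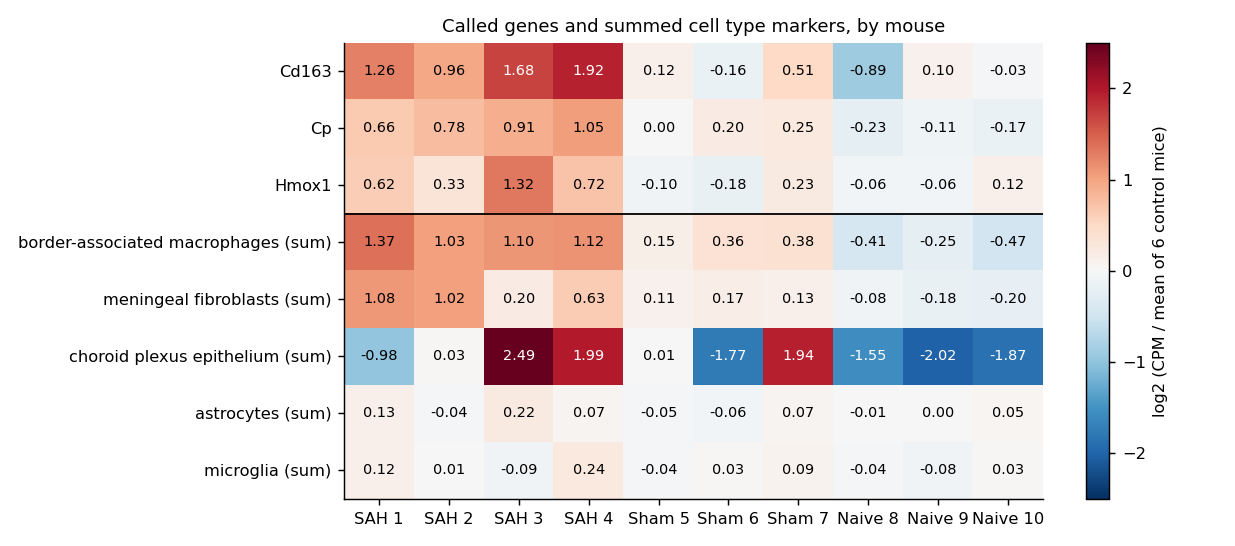
Log2 of the CPM of each mouse over the mean of the 6 control mice (colour, value printed in each cell) for the 3 genes that rose and for the summed CPM of 5 cell type marker lists, with mice in columns. All 4 SAH mice are positive for the 3 genes, for border-associated macrophages (1.03 to 1.37) and for meningeal fibroblasts (0.20 to 1.08), while choroid plexus runs from −2.02 in Naive mouse 9 to 2.49 in SAH mouse 3.

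The genes whose log2 CPM most resembled each gene that rose, over the 10 mice and among 14984 genes ranked by Pearson's r, were as follows. For Hmox1 they were Ctsb, a lysosomal protease (r = 0.986), Serinc3 (r = 0.975) and Gfap, the astrocyte intermediate filament (r = 0.974). For Cp they were Il13ra1, an interleukin receptor chain (r = 0.983), F13a1, a coagulation factor subunit found in macrophages (r = 0.980), and Pcolce, a collagen processing enhancer (r = 0.972). For Cd163 they were Tapbp, a peptide loading protein (r = 0.976), Ifi204, an interferon-induced protein (r = 0.966), and Cd52, a leukocyte surface protein (r = 0.958). All 9 were higher after SAH in edgeR (largest adjusted p = 0.0992, for Ctsb), the points share the difference between the groups and the choice was made on these values, so the coefficients are given as a description.

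**Figure D4:**
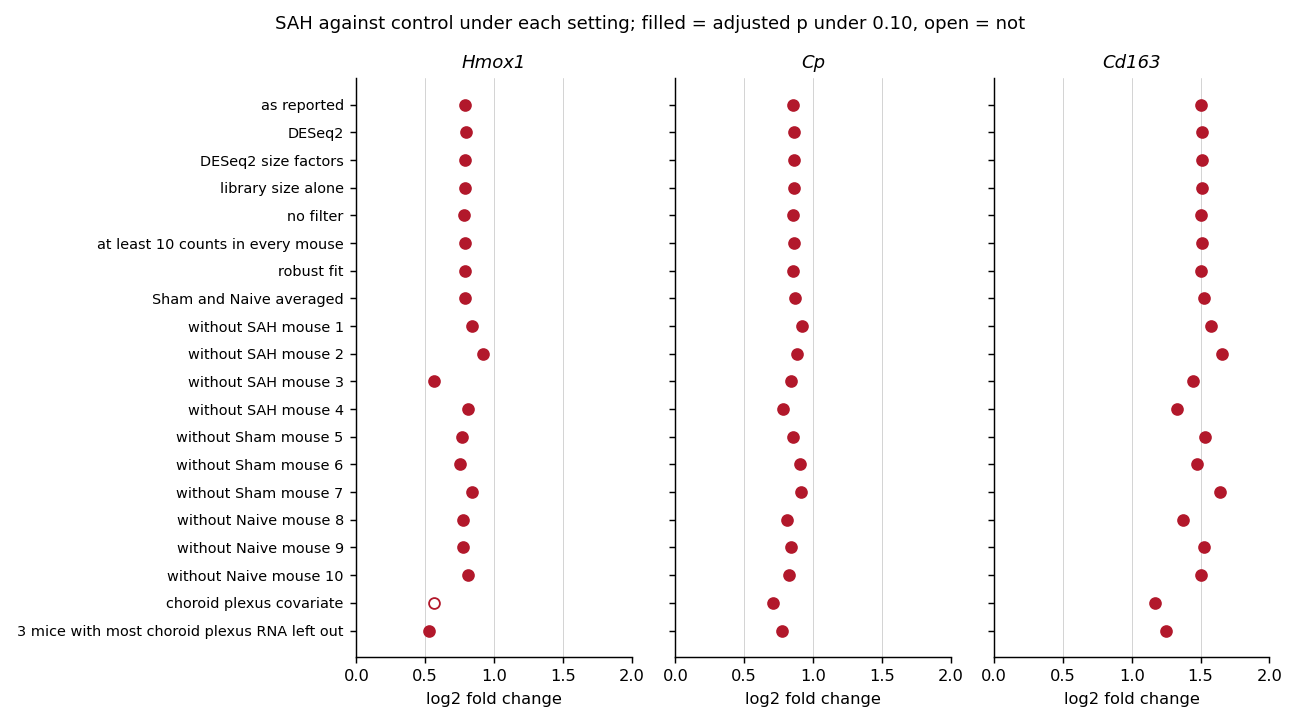
Log2 fold change of SAH against control (horizontal axis) for Hmox1, Cp and Cd163 under each setting (vertical axis), with filled points for an adjusted p under 0.10. Each point lies above 0, the open point is Hmox1 with the choroid plexus covariate at 0.57, and the values without single mice run from 0.56 to 0.92 for Hmox1, 0.78 to 0.92 for Cp and 1.33 to 1.66 for Cd163.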

How the data were processed

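RNA was sequenced from the bilateral hippocampus of 10 mice, 1 stranded library depleted of ribosomal RNA per mouse. According to the methods and, for versions, the file headers, the authors aligned read pairs to mm9 with STAR and, with featureCounts 1.6.2, counted those assigned to the exons of a single gene name. What was deposited are these whole-number counts, not normalized. The submitters' processing notes also list GRCh38, to which no file was found to correspond.

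Groups were taken from the sample labels. Genes were tested by the quasi-likelihood test of edgeR 4.0.16 (R 4.3.3) after TMM scaling and filterByExpr (minimum count 10, minimum total 15), with p-values adjusted by Benjamini-Hochberg over all genes tested and called under 0.10. SE is the log2 fold change divided by the square root of F. The study used DESeq2, tried here as version 1.42.0. The fit was tested on simulated data with 200 changed genes. CPM and CPM per kilobase of exon were computed here from the counts. With 3 to 6 mice a group, p-values measure the spread between these mice.

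The genes, lists and tests were chosen with earlier results of these data known. Named genes were all members, called genes of the 5 heme and iron lists with 1 defining gene each, marker lists by their sum, and the 3 genes most like each called member. Markers named singly, Cpox, Maff and Nfe2l2 were chosen after their values were seen. The lists included Flvcr1 and Flvcr2, names not among those analysed here. Counting error limits Hpx and Cd163 most. Single values of some marker genes are not reported here.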

Additional observations from a re-analysis of the deposited data

How the results depend on the processing

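Of 758 values of single genes under alternative settings, 672 kept their direction and side of the threshold, 61 lost the call, 4 gained it and 21 changed sign, of which 0 were called. With each mouse left out, 3 members were higher and 0 lower than control in all 10 fits, with 223 to 686 genes higher and 85 to 407 lower. Against Sham 0 to 3 members and 6 to 166 genes were higher and 0 to 55 genes lower, against Naive 1 to 3 members and 87 to 443 genes higher and 22 to 240 lower, and in Sham against Naive 0 to 1 genes were higher. In SAH against control, DESeq2 called 398 genes lower, an adjusted p under 0.05 left 277 higher and 92 lower, the choroid plexus covariate 138 and 49 with 2 members higher, and leaving out the 3 mice with most choroid plexus RNA 257 and 73. In SAH against Sham, DESeq2 gave 225 higher and 77 lower, no filter 134 and 48, a robust fit 16 lower with 1 member higher, and the mice of the compared groups alone 12 and 0 with 1 member. In SAH against Naive the mice of the compared groups alone gave 201 and 81 with 2 members, Hmox1 being lost, and DESeq2 467 and 277. In Sham against Naive, DESeq2 gave 2 higher and the mice of the compared groups 2 higher and 1 lower. The causes of these shifts were not tested, except that a stricter threshold gives fewer calls by construction. Hmox1 in SAH against Sham gained its call with DESeq2 (0.80, adjusted p = 0.020) and without the filter (adjusted p = 0.0981 in edgeR).

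Values that changed sign were all small. Blvrb against control was −0.073 without the 3 mice with most choroid plexus RNA, and Hmox1 in Sham against Naive was 0.000166 with library size alone. With each mouse left out, values against control ran from −0.020 to 0.058 for Blvrb and −0.012 to 0.25 for Slc40a1. Against Sham they ran from −0.14 to 0.052 for Blvrb, −0.077 to 0.076 for Fth1 and −0.0011 to 0.19 for Tfrc, and against Naive from −0.067 to 0.021 for Blvra and −0.13 to 0.13 for Slc40a1. In Sham against Naive they ran from −0.14 to 0.073 for Hmox1 and −0.040 to 0.0079 for Hmox2. No paired analysis was possible because each mouse number belongs to a single group. Depth limits Hpx, which no setting that kept the filter could test, and RNA does not measure protein.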
